A study of Homo sapiens with 16 samples.

Results

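The 6 genes described here are 3 type III interferon genes, IL29, IL28A and IL28B (IFNL1, IFNL2 and IFNL3 in RefSeq), and 3 type I interferon genes, IFNB1, IFNA1 and IFNE. They were selected on their measured read counts across cell line, assay and transfection, so their levels and their miR-137 to control ratios are given as a description, with no test. They are 6 of the 20314 genes in the U251 tables and of the 20626 genes in the U343 tables. U251 and U343 are established human glioblastoma cell lines, and both were grown in DMEM with fetal bovine serum. Cells were transfected with a miR-137 mimic or a negative control mimic at 25 nM and harvested after 48 hours. Total RNA was sequenced (RNASeq), as was RNA recovered with antibodies against poly(A)-binding protein, PABP (RIPSeq). This made 8 groups of 2 libraries each: control and miR-137, in RNASeq and RIPSeq, in U251 and in U343. All of them, controls included, were transfected with a mimic by the same lipid reagent, and no library came from untransfected cells. The labels do not say whether the 2 libraries of a group came from separate cultures, so the spread between them may be technical. The library kits differed between the cell lines, so line and kit cannot be told apart.

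Libraries held 10156675 to 30731476 counted reads in U251 and 37736206 to 45134766 in U343. The 8 glioma cell markers summed to between 6439 and 20784 RPM in every library (RPM, reads per 1000000 reads, on library totals scaled by TMM within the experiment), and the 9 leukocyte markers in the tables to between 0.245 and 3.90. VIM was the highest of the 8 in every group. In U251, 1 of the 8 stayed below 1 RPM in each control group and 2 in each miR-137 group, while in U343 all 8 reached 1 RPM. A miR-137 library of U343 RNASeq stood apart in its interferon target genes. The 24 interferon target genes had a median log2 ratio to the control mean (0.1 RPM added) of -0.45 in U343 RNASeq miR-137 replicate 1. In replicate 2 of the same group the median was 5.62. Replicate 1 nevertheless resembled the other miR-137 libraries in its falling genes. Of 1037 genes that fell by more than 1 on the log2 scale in U343 RIPSeq, 988 (95.3%) lay below the control mean in RNASeq replicate 1 and 1032 (99.5%) in replicate 2. Their median log2 ratios were -1.07 and -1.17, against a median log2 fold change of 0.02 over all genes tested in U343 RNASeq. Ratios that rest on replicate 1, and most counts of called genes, are therefore given with and without it. The 2 U251 RIPSeq controls also differed from each other. Replicate 1 held 52 reads over the 15 other interferon genes and replicate 2 held 8, and PAK4 was read at 70.1 ± 49.7 RPM (SD, n = 2) in the pair.

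Interferons are secreted proteins that cells make on sensing foreign nucleic acid. RIG-I (DDX58), MDA5 (IFIH1) and TLR3 sense double-stranded RNA and act through the transcription factors IRF3, IRF7 and NF-kB on the interferon genes. Type I interferons bind IFNAR1 and IFNAR2, which nearly all nucleated cells carry. Type III interferons bind IL28RA (IFNLR1) and IL10RB and act mainly on epithelial cells. Both receptors signal through kinases of the JAK family and a transcription factor complex that holds IRF9 to the interferon target genes. PABP covers the poly(A) tail of messenger RNA, and RNA recovered with it is mainly polyadenylated messenger RNA.

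The sequence of the mature miRNA that the mimic stands for is shown because every comparison rests on its transfection. RefSeq places it on the minus strand of chromosome 1 at chr1:98046091-98046113 (GRCh38.p14). Capitals mark the seed, bases 2 to 8.
miR-137-3p: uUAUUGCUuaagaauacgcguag

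The 250 bases upstream of the RefSeq start are shown for 4 of the genes, because their RIPSeq counts differed. IL29 and IFNB1 had far more reads with miR-137 than in controls in both lines, and IL28A in U343 alone. IFNE changed less, by a ratio of 3.26 in U251 and of 2.32 in U343, where the counting interval (0.998 to 5.81) includes 1. Capitals mark matches, on either strand, to the interferon regulatory factor half-site AANNGAAA, the NF-kB-like site GGNNNTTCC and the TATA box TATAAA. The windows lie at chr19:39296157-39296406 on the plus strand (IL29), chr19:39268146-39268395 on the plus strand (IL28A), chr9:21077943-21078192 on the minus strand (IFNB1) and chr9:21482314-21482563 on the minus strand (IFNE), in GRCh38.p14.
IL29: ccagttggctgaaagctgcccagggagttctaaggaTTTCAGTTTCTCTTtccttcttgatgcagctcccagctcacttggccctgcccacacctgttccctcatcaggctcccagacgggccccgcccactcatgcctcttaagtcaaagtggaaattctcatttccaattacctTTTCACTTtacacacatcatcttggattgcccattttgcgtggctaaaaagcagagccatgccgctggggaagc
IL28A: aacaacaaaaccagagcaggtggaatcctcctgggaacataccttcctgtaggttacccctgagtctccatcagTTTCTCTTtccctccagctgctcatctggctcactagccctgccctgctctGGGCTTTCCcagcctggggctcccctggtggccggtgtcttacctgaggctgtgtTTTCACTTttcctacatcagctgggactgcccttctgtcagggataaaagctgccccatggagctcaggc
IFNB1: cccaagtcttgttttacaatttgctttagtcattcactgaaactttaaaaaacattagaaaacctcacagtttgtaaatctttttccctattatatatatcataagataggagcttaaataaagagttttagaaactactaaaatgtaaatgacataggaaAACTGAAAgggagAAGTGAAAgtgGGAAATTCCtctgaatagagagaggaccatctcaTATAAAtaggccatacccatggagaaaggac
IFNE: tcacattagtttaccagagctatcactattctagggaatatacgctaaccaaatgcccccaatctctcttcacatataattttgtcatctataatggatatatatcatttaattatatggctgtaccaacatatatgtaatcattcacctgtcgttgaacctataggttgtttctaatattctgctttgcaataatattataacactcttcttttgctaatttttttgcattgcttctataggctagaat

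The IL29 window held 3 IRF half-sites, beginning 214, 208 and 74 bases before the start, of which the first and second overlap. IL28A held 2, at 176 and 70 bases, and 1 NF-kB-like site at 125 bases. IL28B has 2 starts in RefSeq. The window of one was 99.6% identical to that of IL28A and held the same matches, and the window of the other (chr19:39245007-39245256) was 20.4% identical and held no match to any of the 3 motifs. IFNB1 held 2 IRF half-sites at 89 and 76 bases, 1 NF-kB-like site at 65 bases and a TATA box at 31 bases, the compact arrangement for which this promoter is known. IFNA1 held 2 overlapping half-sites at 88 and 82 bases. IFNE held no match to any of the 3 motifs. Over 35097 promoter windows of the same length, 20.3% held an IRF half-site, 4.54% held at least 2, 17.1% held an NF-kB-like site and 10.7% a TATA box. A match is a string of letters and does not show that a factor binds there.

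The type III genes lie side by side on chromosome 19, with IL28B from 44426112 to 44427451, IL28A from 44450997 to 44452572 and IL29 from 44478805 to 44481152 in hg18, the build of the count tables. The 4 control libraries of U343 held 0 reads of IL29 and IL28A, and a single one, RIPSeq replicate 1, held 2 reads of IL28B. With miR-137, all 3 genes had over 100 reads in each PABP-bound RNA library of U343, and in total RNA in 1 of the 2 replicates.

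IL29, which encodes interferon lambda 1, had 721 and 1585 reads in the 2 U343 RIPSeq miR-137 libraries. These are 18.5 RPM (95% counting interval 17.1 to 19.9) and 40.5 RPM (38.5 to 42.5). Their mean was 29.5 ± 15.5 RPM (SD, n = 2). Both libraries lay far above the controls, where 0 reads allow at most 0.0665 and 0.0738 RPM (3 counts of the total). Against the floor of 3 counts over the control group, IL29 was at least 843-fold higher. In U343 RNASeq, IL29 had 0 reads in miR-137 replicate 1 and 377 in replicate 2, or 8.89 RPM. The bound was at least 125-fold with both replicates and at least 249-fold with replicate 2 alone. Leaving out a control lowered it to as little as 56.3, since the floor then stands on 1 library. Replicate 1 did not differ from the controls, which also held 0 reads.

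In U251 RIPSeq, IL29 had 4 and 1 reads in the controls and 193 and 242 with miR-137. The means were 0.104 ± 0.0958 and 8.14 ± 1.07 RPM (SD, n = 2), a ratio of summed counts of 83.7 (95% counting interval 35.6 to 259). The groups did not overlap, which groups of 2 libraries can do by chance, and the share of all genes that did so was not computed. U251 RNASeq held 0 and 0 reads in the controls and 2 and 6 with miR-137. That is 0.356 ± 0.249 RPM with miR-137, and with under 10 reads in both groups no fold is given. The highest levels of IL29 were thus in PABP-bound RNA of U343, whose 2 libraries lay above all others. RNASeq replicate 2 of U343, at 8.89 RPM, lay within the range of the U251 RIPSeq libraries, 7.38 to 8.90 RPM. RPM were scaled within each experiment, so values of different experiments are not on a common scale.

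IL28A (interferon lambda 2) had 217 and 416 reads in U343 RIPSeq with miR-137, which is 8.09 ± 3.58 RPM (SD, n = 2) and at least 231-fold over the control floor. In U343 RNASeq it had 0 reads in miR-137 replicate 1 and 175 in replicate 2. The bound there was at least 58.0-fold, at least 116-fold from replicate 2 alone, and as little as 26.1 without a control. In U251 the gene was hardly read. RNASeq held 0 reads in all 4 libraries. RIPSeq held 1 and 0 reads in the controls and 0 and 2 with miR-137, so that the groups overlapped.

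IL28B (interferon lambda 3) had 2 and 0 control reads and 158 and 298 reads with miR-137 in U343 RIPSeq. Its mean was 5.83 ± 2.52 RPM with miR-137 and the ratio 250 (68.8 to 2071). In U343 RNASeq, 0 and 0 control reads stood against 2 and 117 with miR-137, at least 39.4-fold, from replicate 2 alone at least 77.3-fold, and as little as 17.8 without a control. U251 RNASeq held no read in any of its 4 libraries. U251 RIPSeq held 0 and 0 control reads and 3 and 3 with miR-137. IL28A and IL28B are near-identical genes. How reads that map to both were counted is not given in the sources used here, so the split between them is uncertain. With miR-137 the U251 RIPSeq libraries held, in all, 435 reads of IL29, 2 of IL28A and 6 of IL28B, and the U343 RIPSeq libraries 2306, 633 and 456.

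**Figure D1:**
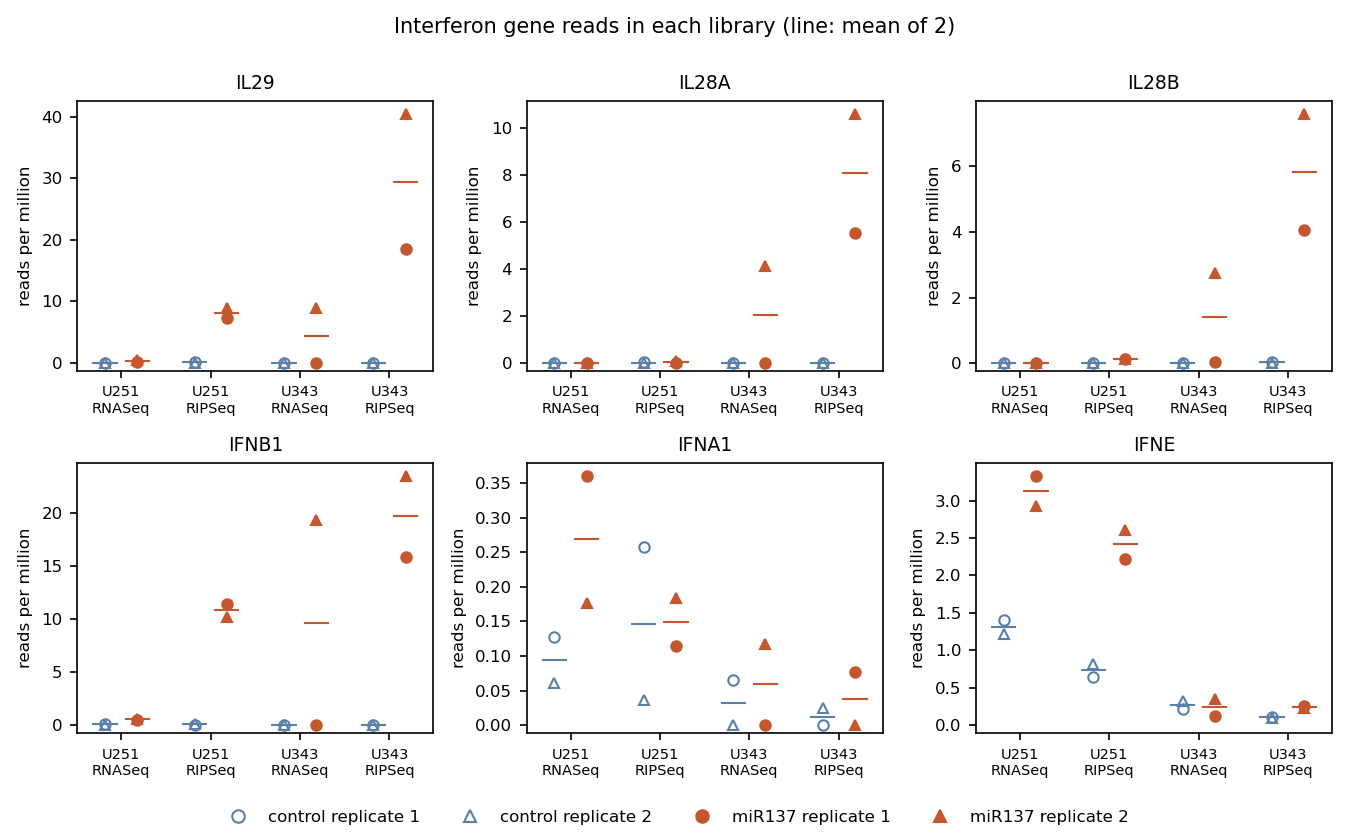
RPM of each of the 6 interferon genes (one panel each, linear axes that differ between panels) in every library, by experiment. Open symbols are control libraries, filled symbols miR-137 libraries, circles replicate 1, triangles replicate 2 and short lines the mean of 2. In U343 RNASeq the miR-137 circle of IL29, IL28A, IL28B and IFNB1 sits at the level of the controls and the triangle at 8.89, 4.12, 2.76 and 19.3 RPM.

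The genes around the type III cluster are given for their levels in the same libraries. On the left, PAK4 (a kinase) was read at 39.7 ± 1.45 RPM in U343 RNASeq controls and 46.9 ± 9.48 with miR-137, NCCRP1 at 0.951 ± 0.334 and 0.958 ± 0.112, and SYCN had 1 and 0 reads in all. On the right, LRFN1 was read at 0.787 ± 0.143 and 0.864 ± 0.322 RPM, GMFG at 0.122 ± 0.0507 and 0.178 ± 0.0845, and SAMD4B at 51.6 ± 1.65 and 66.7 ± 4.63. In U343 RIPSeq, where the 3 interferon genes had 0, 0 and 2 summed control reads and 2306, 633 and 456 with miR-137, SYCN had no read, GMFG had 11 in the controls and 17 with miR-137, and LRFN1 128 and 176.

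The type I genes lie on chromosome 9p21, with IFNB1 from 21067104 to 21067943, IFNA1 from 21430440 to 21431315 and IFNE from 21470841 to 21472312 (hg18). All 3 are intronless, and they behaved in 3 different ways. IFNB1 followed IL29 in both lines, and IL28A and IL28B in U343 alone, IFNA1 stayed at a few reads, and IFNE was read in all 16 libraries.

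IFNB1 encodes interferon beta, the early type I interferon of non-immune cells. It had 1 and 0 reads in the U343 RIPSeq controls and 618 and 919 with miR-137, or 19.6 ± 5.40 RPM (SD, n = 2). The ratio was 1686, with a counting interval from 302 to 66624 because the controls held a single read. In U343 RNASeq it had 1 and 1 control reads, 1 read in miR-137 replicate 1 and 817 in replicate 2. The ratio was 407 (112 to 3364) with both replicates and 810 (223 to 6696) with replicate 2 alone. Replicate 2, at 19.3 RPM, lay between the 2 RIPSeq libraries at 15.8 and 23.5 RPM, and replicate 1, at 0.0237 RPM, lay between its controls. The RPM of RNASeq and RIPSeq are not on a common scale.

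In U251 RIPSeq, IFNB1 had 1 and 3 control reads and 299 and 276 with miR-137, which is 0.0751 ± 0.0456 and 10.8 ± 0.914 RPM and a ratio of 138 (53.7 to 509). In U251 RNASeq it had 1 and 1 control reads and 5 and 7 with miR-137, a ratio of 8.59 (1.91 to 79.0). The groups did not overlap in either assay of U251, with the same limits of 2 libraries a group and no share computed over all genes.

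IFNA1 is one of the clustered interferon alpha genes and codes for the same protein as IFNA13, so reads of the pair may have been split. It had 2 and 1 control reads and 4 and 2 miR-137 reads in U251 RNASeq, and 6 and 1 against 3 and 5 in U251 RIPSeq. In U343 RNASeq it had 3 and 0 control reads and 0 and 5 with miR-137, and in U343 RIPSeq 0 and 1 against 3 and 0. In RPM the groups overlapped in all but U251 RNASeq, where the lower miR-137 library and the higher control held 2 reads each. No library exceeded 0.360 RPM, and no fold is given at these counts.

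IFNE (interferon epsilon) is known as a constitutive interferon of the female reproductive tract that is not induced by the usual sensors. It had 22 and 20 control reads and 37 and 33 with miR-137 in U251 RNASeq, at 1.31 ± 0.129 and 3.13 ± 0.289 RPM, a ratio of 2.39 (1.60 to 3.58). In U251 RIPSeq it had 15 and 23 reads against 58 and 71, a ratio of 3.26 (2.26 to 4.82). The groups did not overlap in U251. Groups of 2 libraries can separate by chance, and the share of all genes that did so was not computed. By edgeR at an adjusted p under 0.05, 28.7% of all genes rose in U251 RNASeq and 0.944% in U251 RIPSeq. In U343 RNASeq it had 10 and 12 control reads, 5 in miR-137 replicate 1 and 15 in replicate 2, a ratio of 0.904 (0.468 to 1.74) that was 0.454 (0.134 to 1.23) from replicate 1 and 1.35 (0.652 to 2.73) from replicate 2. In U343 RIPSeq, 5 and 4 stood against 10 and 9, a ratio of 2.32 (0.998 to 5.81). Both intervals of U343 include a ratio of 1.

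Because the type I genes have no intron, their levels can be set side by side per kilobase of gene. In U251 RNASeq controls, IFNE had the highest level, 0.892 ± 0.0873 RPM per kb (SD, n = 2), against 0.108 ± 0.0537 for IFNA1 and 0.0744 ± 0.00228 for IFNB1, and these last values did not differ beyond their spread. With miR-137 in U251 RNASeq, IFNE was again highest (2.13 ± 0.196), then IFNB1 (0.638 ± 0.143) and IFNA1 (0.307 ± 0.148). In U251 RIPSeq with miR-137 IFNB1 was highest at 12.8 ± 1.09, then IFNE at 1.64 ± 0.188 and IFNA1 at 0.170 ± 0.0557. In U343 RIPSeq with miR-137 the values were 23.4 ± 6.42 for IFNB1, 0.165 ± 0.0127 for IFNE and 0.0438 ± 0.0620 for IFNA1.

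The other 15 interferon genes (the remaining alpha genes, IFNW1, IFNK and IFNG) were at the edge of detection. Together they had 1 to 52 reads per library. The highest sum, 52 reads over 12 genes, was in U251 RIPSeq control replicate 1 and not in a miR-137 library, and IL29 (4 reads) and IFNA1 (6 reads) had their highest control counts there too. The part of such background reads in counts below 10 was not tested. In U343 with miR-137, IFNW1 (interferon omega) reached 13 reads in RNASeq replicate 2, and IFNA7 reached 10 in RIPSeq replicate 2. IFNA4 and IFNA10 had 0 reads in all U251 libraries.

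Genes on either side of the type I cluster were also read. KLHL9, which lies within it, had 382 to 1730 reads per library in U251 and 1249 to 2322 in U343. KIAA1797 had 792 to 2276 and 778 to 2184, and MTAP, a methionine salvage enzyme, 2257 to 5074 and 1303 to 1919. MLLT3 had 226 to 1933 and 231 to 751, DMRTA1 153 to 449 and 37 to 215, and ELAVL2 4 to 28 and 17 to 55. PTPLAD2 had at most 14 and 6 reads, and SLC24A2 at most 53 and 2. CDKN2B, a cell cycle inhibitor, had 0 reads in all U251 libraries and 6 to 18 in U343. CDKN2A had 0 in U343 and was not analysed here in U251, and C9orf53 had 0 in both. Reads of MTAP and KLHL9 show only that these flanking genes were transcribed, and the copy number of the interferon genes was not measured.

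The 2 miR-137 libraries of U343 RIPSeq, which both carried the response, differed in the size of the induced interferon genes. Replicate 2 over replicate 1 was 2.19 for IL29 (95% counting interval 2.01 to 2.40), 1.91 (1.62 to 2.26) for IL28A, 1.88 (1.54 to 2.29) for IL28B and 1.48 (1.34 to 1.64) for IFNB1. The median of this ratio over the 24 interferon target genes was 1.03, with a range from 0.826 to 2.05. CCL5, a chemokine among these, went with IL29, at 9225 and 19015 reads. In U251 RIPSeq the same ratio was 1.20 (0.993 to 1.46) for IL29 and 0.887 (0.750 to 1.05) for IFNB1. In U343 RNASeq it was at least 125 for IL29, at least 57.9 for IL28A, 58.1 (15.7 to 485) for IL28B and 811 (145 to 32084) for IFNB1, and the median over the target genes was 88.5.

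RIPSeq and RNASeq counts of the miR-137 libraries were set against each other within each line, on TMM-scaled totals over both assays, so that the median gene has a ratio near 1. In U251 the PABP-bound to total ratio was 24.5 for IL29 (95% counting interval 12.3 to 57.2) and 21.6 for IFNB1 (12.3 to 42.1). Of 13010 genes with at least 50 reads over both assays and reads in each, 0.0154% had a ratio above that of IL29 and 0.0307% one above that of IFNB1. Genes without total RNA reads were left out of this ranking. IL29 and IFNB1 were chosen on their counts and reached 50 reads only through RIPSeq. Their rank is therefore a description and no sign of unusual PABP binding. The range from the 5th to the 95th percentile of these genes was 0.342 to 2.61. IFNE was inside it at 0.832 (0.617 to 1.13). Of the 9 other inducible cytokines, 6 lay above this range, IL1B (18.0, 10.8 to 32.4), CCL20 (8.31), CSF2 (6.32), IL6 (5.65), IL1A (4.07) and IL8 (2.67), and LIF (2.07), IL12A (1.71) and IL15 (1.25) lay inside it, with a list median of 4.07. Among the interferon target genes, the chemokines CXCL10 (6.12) and CCL5 (5.61) lay above it and CXCL11 (1.28) inside. The 24 interferon target genes had a median of 1.24. The total RNA counts behind IL29 and IFNB1 were 8 and 12 reads.

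In U343, the ratio was 7.19 (6.45 to 8.04) for IL29, 4.25 (3.59 to 5.06) for IL28A, 4.50 (3.67 to 5.56) for IL28B and 2.21 (2.03 to 2.41) for IFNB1 with both RNASeq libraries. Without RNASeq replicate 1 these fell to 3.59 (3.21 to 4.01), 2.12 (1.79 to 2.52), 2.28 (1.86 to 2.82) and 1.10 (1.01 to 1.20). The 5th to 95th percentile range of 14310 genes was then 0.501 to 1.93. The type III genes lay above this range without replicate 1 and IFNB1 lay inside it. IL29 had 0.601% of genes above it and IFNB1 39.5%. IL1B and IL6, high in U251, had ratios of 0.673 and 0.648 in U343, and CCL5 had 5.46. No test of PABP binding was made for the 6 genes, and their ranks are a description because they were chosen on their counts.

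**Figure D2:**
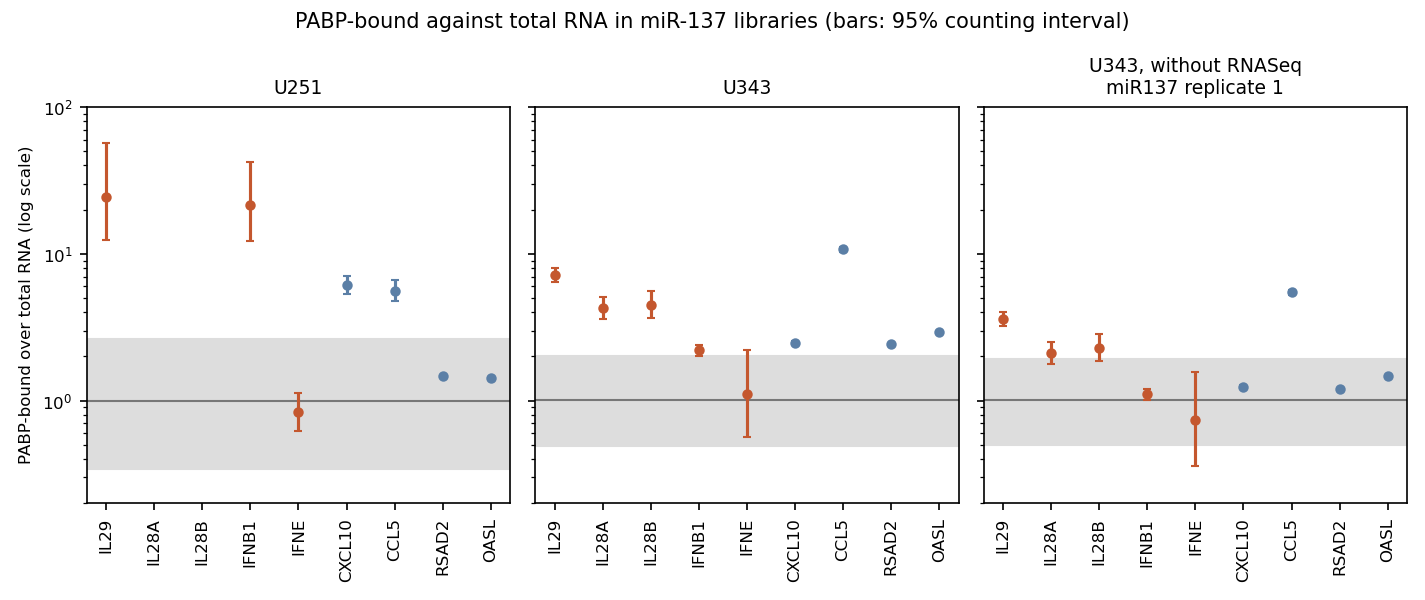
PABP-bound (RIPSeq) over total (RNASeq) RNA in the miR-137 libraries on a log axis, for 5 of the interferon genes (orange) and 4 interferon target genes (blue). Bars are 95% counting intervals. The grey band spans the 5th to 95th percentile of all genes with at least 50 reads over both assays and reads in each, and the grey line is their median. Genes with under 10 reads in both assays are blank. IL29 and IFNB1 sit at 24.5 and 21.6 in U251, and at 3.59 and 1.10 in U343 without RNASeq replicate 1.

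The genes with the profile most like each interferon gene were found over the 16 libraries, by dividing each gene's RPM by its highest value and averaging the absolute difference (0 is the same profile). Of 15590 genes compared, the nearest to IL29 were CCL5 (0.0239), WFDC5 (0.0310), TAC3 (0.0345), IL28B (0.0391) and IL28A (0.0406), where the median gene differed by 0.434. IL28A and IL28B were nearest to each other (0.00458), followed by CCL5, HRASLS2, WFDC5 and IL29 for IL28A and by HRASLS2, CCL5, WFDC5 and IL29 for IL28B. With log2(RPM + 1) in place of RPM, CCL5 was no longer among the 5 nearest of any of the 3 type III genes, and those kept were TAC3 and IL28B for IL29, IL28B, HRASLS2 and WFDC5 for IL28A, and IL28A, HRASLS2 and WFDC5 for IL28B. IFNB1 was nearest to CXCL10 (0.0324), then OASL (0.0630), GRIP2 (0.0676), TNFSF10 (0.0709) and CXCL11 (0.0720). CCL5 and CXCL10 encode chemokines, OASL an antiviral protein, TNFSF10 the death ligand TRAIL, TAC3 a neurokinin precursor and GRIP2 a synaptic scaffold. WFDC5 is a low count gene, with at most 76 reads in a library. IFNE was nearest to BDNF (0.0350), a neurotrophin, then ZNF620 (0.0434), SRGAP1 (0.0510), PDZD2 (0.0518) and LOC143188 (0.0545), which were highest in U251 RNASeq with miR-137. These profiles share the same libraries, their RPM were scaled within each experiment, and U343 RNASeq replicate 1 enters all of them.

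**Figure D3:**
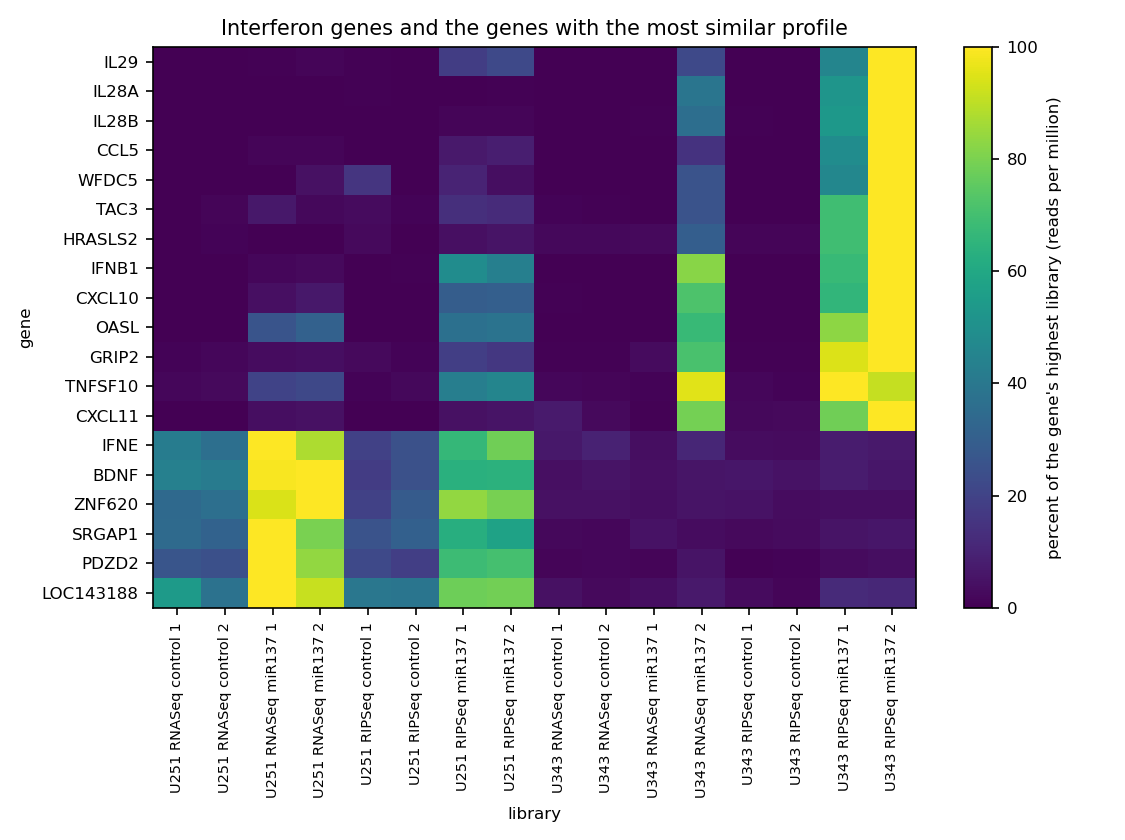
Profiles of 5 interferon genes and the genes most like them over the 16 libraries, as a percent of each gene's highest library in RPM (color scale, rows are genes, columns are libraries). IL29, IL28A, IL28B and CCL5 reach their highest value in U343 RIPSeq miR-137 replicate 2, and IFNE and BDNF are highest in the U251 RNASeq miR-137 libraries.

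The rest of the pathway was tested with edgeR's quasi-likelihood test, with Benjamini-Hochberg adjustment over all genes of an experiment and a threshold of 0.05, in 4 lists. These are the sensors and factors that induce interferon genes (24 genes), interferon receptors and signalling (15), interferon target genes (24) and other inducible cytokines (10, of which 9 are in the tables). They were drawn up with earlier results of these data known.

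Among the sensors and inducing factors, the double-stranded RNA sensors rose with miR-137 in both lines. In U251 RNASeq, 15 of the 21 genes tested rose and 2 fell (MAVS and ATF2), where 28.7% of all genes rose and 29.0% fell. DHX58 rose by 4.62 ± 0.17 (log2 fold change ± SE), DDX58 by 4.54 ± 0.16, TLR3 by 3.95 ± 0.18 and IFIH1 by 3.40 ± 0.14. In U251 RIPSeq, 3 of 22 rose and none fell by edgeR (10 and 0 at an unadjusted p under 0.05, 7 and 0 by DESeq2), where 0.944% of all genes rose and 0.263% fell. These were DDX58 (5.71 ± 0.55, 178 and 520 control reads against 18382 and 18369), TLR3 (4.63 ± 0.46) and DHX58 (3.70 ± 0.30). IFIH1 had 4.25 ± 0.60 with an adjusted p of 0.0617 by edgeR.

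In U343 RIPSeq, 19 of the 24 sensing genes rose and 1, TRAF3, fell, where 28.5% of all genes rose and 27.8% fell. IRF7 rose by 6.21 ± 0.12, DDX58 by 6.12 ± 0.11, IFIH1 by 5.03 ± 0.11, TLR3 by 3.66 ± 0.18 and IRF3, in the U343 tables alone, by 0.51 ± 0.08. In U343 RNASeq, 1 of 24 rose (IKBKE, 1.60 ± 0.14) and 1 fell (TRAF3, -0.97 ± 0.11), where 8.31% of all genes rose and 11.7% fell. Without miR-137 replicate 1, which leaves a single miR-137 library assumed to vary like the controls, 16 rose and 2 fell, where 19.3% of all genes rose and 20.3% fell. DDX58 had 586 and 430 control reads, 561 in replicate 1 and 29580 in replicate 2.

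The receptor chains of type I and type III interferons rose in none of the 4 experiments. IL28RA, the chain that makes the type III receptor specific, passed the test in none of the 4 experiments. It had 112, 88, 70 and 69 reads in U251 RNASeq (controls first) and 86, 62, 59 and 79 in U343 RIPSeq. The U251 RNASeq controls were deeper, at 16886287 and 18224061 counted reads against 10260834 and 10156675 with miR-137. IL10RB, the partner chain of IL28RA, and IFNAR2 also passed in none. IFNAR1 fell in U251 RNASeq by 0.50 ± 0.14 on the log2 scale (adjusted p = 0.00679 by edgeR) and in U343 RIPSeq by 0.99 ± 0.09 (adjusted p = 5.93e-05 by edgeR). Of the 15 genes of receptors and signalling, 7 rose and 2 fell in U251 RNASeq, 3 rose and none fell in U251 RIPSeq (5 and 2 at an unadjusted p under 0.05, 4 and 0 by DESeq2), none rose and 1 fell in U343 RNASeq (4 and 2 unadjusted, 4 and 2 by DESeq2), and 8 rose and 3 fell in U343 RIPSeq. The shares of all genes that rose and fell were 28.7% and 29.0%, 0.944% and 0.263%, 8.31% and 11.7%, and 28.5% and 27.8% in the same order. Those that rose were mostly downstream of the receptors. IRF9 rose by 4.72 ± 0.17 in U251 RNASeq, as did USP18, a negative regulator, by 3.11 ± 0.14. USP18 rose by 5.08 ± 0.13 and SOCS1, a feedback inhibitor, by 4.17 ± 0.15 in U343 RIPSeq. In U251 RIPSeq the 3 were IRF9 (4.92 ± 0.30), USP18 (3.29 ± 0.29) and STAT2 (2.50 ± 0.25). The gene that fell in U343 RNASeq was IFNGR2 (-0.45 ± 0.10). Without replicate 1 of U343 RNASeq 6 rose and 4 fell, where 19.3% and 20.3% of all genes did.

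The interferon target genes rose nearly as a whole in 3 of the 4 experiments. In U251 RNASeq all 24 rose (median log2 fold change 5.97, against 0.02 over all genes), in U251 RIPSeq 22 (7.02, all genes -0.02) and in U343 RIPSeq 23 (6.85, all genes 0.00). The shares of all genes that rose were 28.7%, 0.944% and 28.5% in the same order. RSAD2, an antiviral enzyme, went from 3 and 3 reads to 8309 and 8114 in U251 RNASeq. OAS2 rose by 11.13 ± 0.26 and XAF1 by 10.52 ± 0.25 there. In U251 RIPSeq the largest were RSAD2 (11.01 ± 0.80), OAS1 (9.77 ± 0.33) and OAS2 (9.53 ± 0.54), and in U343 RIPSeq MX2 (10.86 ± 0.17), IFI27 (10.09 ± 0.16) and OASL (9.69 ± 0.19). The exception in U343 was MX1, an antiviral GTPase, with 314 and 321 control reads against 329 and 366, and it rose by 6.70 ± 0.27 in U251 RIPSeq. In U343 RNASeq none of the 24 passed by edgeR in the fit of both miR-137 replicates, which disagreed, where 8.31% of all genes rose. There 8 were higher at an unadjusted p under 0.05 and 12 were called higher by DESeq2. The median log2 ratio to the control mean, with 0.1 RPM added, was -0.45 in replicate 1 and 5.62 in replicate 2. The median edgeR log2 fold change was 4.66 with both replicates and 5.62 without replicate 1. Over the 4 lists, U251 RIPSeq had 29 calls of a rise and U343 RNASeq had 5, where 0.944% and 8.31% of all genes rose. Both counts changed strongly when a single library was left out, as given below.

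In U251 total RNA the target genes were up in both miR-137 libraries while reads of IL29 and IFNB1 were few, 8 for IL29 and 12 for IFNB1 in 2 libraries of 10156675 and 10260834 counted reads. At this depth 0 reads in a library allow up to 0.270 RPM.

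Of the other inducible cytokines, 6 of 7 tested rose in U251 RNASeq, 1 of 9 in U251 RIPSeq (IL1B, 2.05 ± 0.25), 4 of 7 in U343 RNASeq (7 of 7 without miR-137 replicate 1) and 7 of 7 in U343 RIPSeq, where 28.7%, 0.944%, 8.31% (19.3%) and 28.5% of all genes rose. None fell by edgeR (at an unadjusted p under 0.05 and by DESeq2, 1 was lower, in U251 RIPSeq). In U251 RNASeq the largest were IL8 (2.02 ± 0.15), IL12A (1.65 ± 0.27) and IL1A (1.18 ± 0.29), and in U343 RIPSeq IL8 (4.20 ± 0.43), IL6 (3.39 ± 0.27) and IL1B (2.89 ± 0.29). In U343 RNASeq they were IL6 (4.34 ± 0.81), IL1B (2.65 ± 0.22) and LIF (2.48 ± 0.39). In this list, the median log2 ratio to the control mean (0.1 RPM added) was 0.56 in U343 RNASeq replicate 1 and 2.45 in replicate 2. IL1B had 219 and 129 control reads there, 1169 in replicate 1 and 991 in replicate 2, and IL6 had 7 and 7, then 64 and 227. Replicate 1 thus held more IL1B reads than either control, and 1 read of IFNB1 as both controls did.

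**Figure D4:**
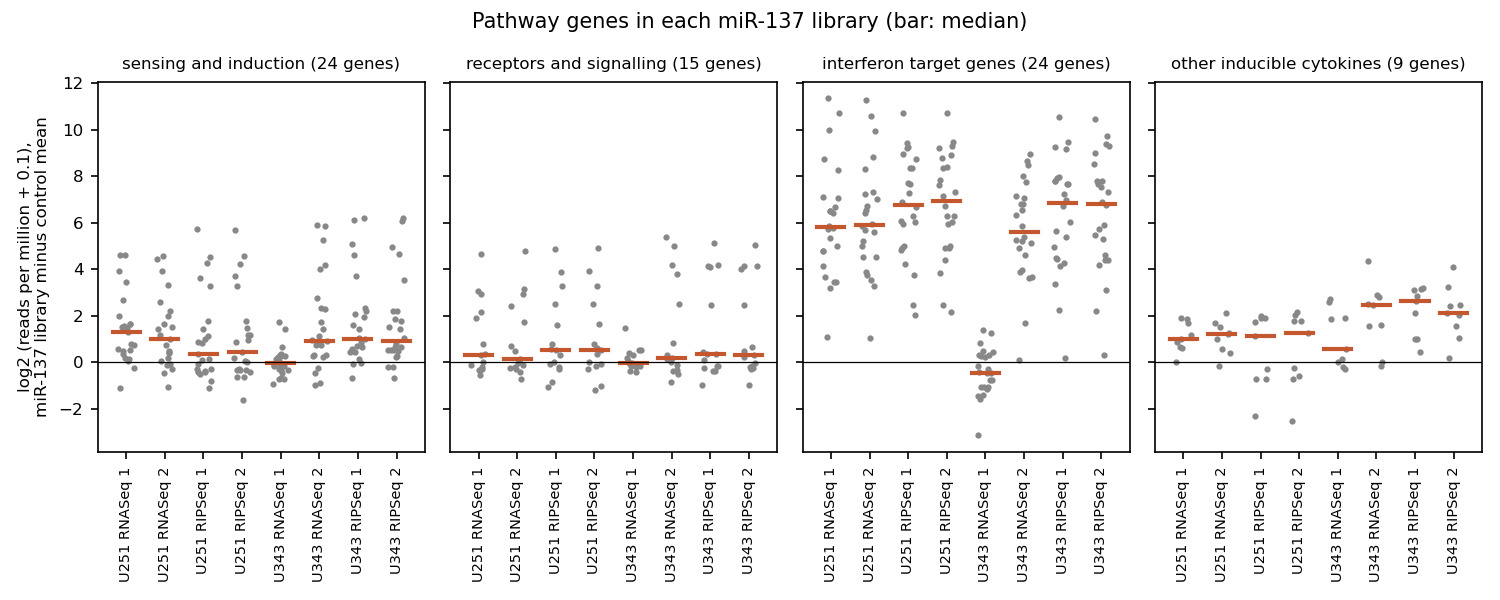
Log2 ratio of each miR-137 library to the control mean (RPM with 0.1 added) for the genes of the 4 pathway lists, 1 point per gene and a bar at the median. The interferon target genes sit above 0 in 7 of the 8 libraries, with medians from 5.62 to 6.93, and around a median of -0.45 in U343 RNASeq replicate 1.

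A difference of the miR-137 response between U343 and U251 was tested as an interaction in edgeR over the 8 libraries of each assay. In RNASeq, 9 of 70 pathway genes differed, a smaller share than the 25.2% of all genes that did. In RIPSeq, 13 of 71 differed, where 3.28% of all genes did. The RIPSeq count became 46 and 49 without U251 control replicate 1 or 2 and 1 without any 1 of the other 6 libraries, and the RNASeq count 35 without U343 miR-137 replicate 1 and 50 without replicate 2. IRF7, the factor that amplifies type I interferon transcription, had 58 and 26 control reads against 24 and 13 with miR-137 in U251 RIPSeq, and 321 and 325 against 21842 and 21882 in U343 RIPSeq. The log2 response differed by 7.54 ± 0.66 (adjusted p = 0.0098 by edgeR). In RNASeq, IRF7 rose in U251 from 9 and 7 reads to 20 and 26 (2.02 ± 0.40). In U343 RNASeq it had 301 and 277 control reads, 976 in replicate 1 and 17625 in replicate 2. MX1 differed in both assays, by -6.93 ± 0.46 in RNASeq and -6.39 ± 0.25 in RIPSeq (adjusted p = 0.000222 and 0.000254 by edgeR), U343 being the lower. The difference between lines in IL28A and IL28B was not tested, since these genes were chosen on their counts.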

How the data were processed

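U251 and U343 cells were measured by RNASeq and PABP RIPSeq in 16 libraries, 2 for each group, with groups taken from the labels. The authors used RMAP for alignment to hg18 and merged the RefSeq isoforms of a gene before counting. The deposited values are raw counts of reads for each gene. The version of RMAP and the handling of reads that map to several places are not given in the sources used here. The U251 tables give every gene the same strand, which was not used, and of 1 repeated gene name the first line was kept. The interferon genes and the gene lists were chosen with earlier results of these data known.

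Counts were scaled by TMM factors in edgeR 4.0.16 (R 4.3.3) within each experiment. Ratios for the interferon genes are ratios of summed counts with exact (Clopper-Pearson) 95% intervals. These intervals, and floors of 3 counts used where controls held 0 reads, cover counting error only. No fold is given where both groups held under 10 reads, a minimum set after the counts were seen. The PABP-bound to total ratio used factors computed over the 4 miR-137 libraries of a line. Pathway genes were tested with edgeR's quasi-likelihood test after filterByExpr, with Benjamini-Hochberg adjustment over all genes, and the line difference as an interaction term. The procedure was tested on simulated data. Alternatives were DESeq2 1.42.0, upper-quartile factors, no filter, raw totals, a replicate block, the Fisher rule of the methods over the 4 pairs of libraries (odds ratio over 2, adjusted p under 0.001, mirrored for rises), another measure of likeness, and each library left out. The named genes are the 6 interferon genes, up to 3 called genes with the largest change per list and experiment, receptors and sensors fixed by name (1 of the genes so named is not reported here), neighbours of both clusters, other interferons with reads, and the 5 genes most like each interferon gene with at least 100 reads. Gene symbols were matched to RefSeq (GRCh38.p14) for promoters, and all 6 matched.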

Additional observations from a re-analysis of the deposited data

Results flagged for a closer look

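In both assays some pathway genes differed between U343 and U251 in their response to miR-137, by edgeR's test of the interaction. In RNASeq these were 9 of 70, among them MX1, XAF1, BST2, IL6 and LIF, a smaller share than the 25.2% of all genes that differed. This RNASeq count includes the discordant U343 miR-137 replicate 1 and changed strongly when that library was left out. In RIPSeq they were 13 of 71, among them IFIT1, IFIT3, OAS1, OASL, USP18 and IRF7, where 3.28% of all genes differed. The RIPSeq count was 5 with the replicate block, 1 without any 1 of 6 libraries, and 46 or 49 without U251 control replicate 1 or 2. The log2 response of IRF7 was 7.54 larger in U343 than in U251 in RIPSeq. Line and library kit cannot be told apart in these comparisons.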

How the results depend on the processing

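Of 195 values recomputed under alternatives, 131 kept within the limits set for them and 64 moved. For the miR-137 to control ratios the limit was 1 SD between the 2 miR-137 libraries. In U343 RNASeq this SD exceeded the mean for IL29 (4.44 ± 6.28 RPM), IL28A, IL28B and IFNB1. Any fall of these ratios that stayed above 1 counted as kept, so the 131 is no measure of their stability. Limits: 2 libraries per group, few control reads, 1 discordant miR-137 library in U343 RNASeq, and 2 unlike controls in U251 RIPSeq. Ratios of the interferon genes, leaving out 1 library in turn, ran as follows. In U251 RIPSeq, IL29 ranged from 47.6 to 228, IFNB1 from 100.4 to 252 and IFNE from 2.94 to 3.77. In U343 RIPSeq, IL29 ranged from 399.7 to 1157, IL28A from 110 to 304, IL28B from 79.0 to 326 and IFNB1 from 266 to 2012. In U343 RNASeq, the bounds ranged from 56.3 to 249 for IL29, 26.1 to 116 for IL28A and 17.8 to 77.3 for IL28B. With raw library totals the ratio of IFNE in U251 RNASeq was 2.87. On a log scale 2, 3, 3, 1 and 1 of the 5 genes most like IL29, IL28A, IL28B, IFNB1 and IFNE were shared. The PABP-bound ratios without U343 RNASeq miR-137 replicate 1, chosen after seeing the data, were 3.59, 2.12, 2.28 and 1.10 for IL29, IL28A, IL28B and IFNB1.

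The counts of pathway genes that rose and fell were these. In U251 RNASeq the fall was called for 0 by the Fisher rule, and leaving out a library gave 48 to 52 that rose and 2 to 4 that fell. In U251 RIPSeq DESeq2, the replicate block and the Fisher rule each called 1 that fell, and leaving out a library gave 30 to 54 that rose and 0 to 14 that fell, with 49 and 54 that rose and 14 and 12 that fell without control replicate 1 or 2. In U343 RNASeq DESeq2 called 24 that rose and 4 that fell, the Fisher rule 8 and 0, and upper-quartile factors, no filter and the replicate block each 1 that fell. There, leaving out a library gave 0 to 52 that rose and 0 to 17 that fell, with 52 and 6 without miR-137 replicate 1 and 0 without either control. In U343 RIPSeq the Fisher rule called 0 that fell, and leaving out a library gave 2 to 3. Genes that differed between lines in RNASeq ranged from 4 to 50 when 1 library was left out, with 35 without U343 miR-137 replicate 1. In RIPSeq they ranged from 1 to 49, with 46 and 49 without U251 control replicate 1 or 2, and were 5 with the replicate block and 26 with DESeq2. The cause was not tested. The labels do not say whether same-numbered libraries are paired. The deviations of same-numbered libraries had correlations of 0.0327 to 0.279, with 0.139 in U343 RNASeq and the highest in U343 RIPSeq.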
